A study of Mus musculus with 4 samples.

Results

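The heat shock proteins and chaperonins were taken by name from the gene list of the series: names starting with Hsp and a digit or one of the letters a, b, d, e and h, names of the J-protein classes Dnaja, Dnajb and Dnajc, and the chaperonin subunits Cct2 to Cct8. Of 31053 listed genes, 82 carried such a name, and the 64 with at least 100 unique molecular identifiers (UMIs, each standing for 1 captured transcript) over the 4 libraries were kept. They comprised 3 HSP90 genes, 7 HSP70 genes, 3 genes of the HSP110 branch and both subunits of the mitochondrial HSP60/HSP10 chaperonin. Hspb6 and Hspb11 were grouped with the small heat shock proteins by name alone, and 2 genes are named for binding to heat shock proteins. The others were 4 DNAJA, 11 DNAJB and 23 DNAJC genes, and 7 subunits of the cytosolic chaperonin CCT. Just above the threshold lay Hspa1b with 121 UMIs, Dnajb3 with 218 and Cct6b with 305. Just below it lay Hspb9 with 93 UMIs, Hspa1a with 70 and Dnajc6 with 57. Cct6a was not analysed here, and Tcp1, the remaining CCT subunit, does not carry a matching name and was read as a neighbour of the complex.

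Molecular chaperones bind unfolded or partly folded proteins and let them fold without aggregating. In the cytosol, HSP70 takes up client proteins that J-proteins deliver, HSP110 proteins exchange its nucleotide, HSP90 finishes kinases and receptors, and the barrel-shaped CCT complex folds actin, tubulin and other proteins that cannot fold alone. Separate sets work in the endoplasmic reticulum (ER) and in mitochondria, and T cells that leave quiescence are known to raise protein synthesis and the folding capacity that goes with it.

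Splenic donor T cells were profiled from BALB/c mice with graft-versus-host disease (GVHD), in which T cells of a graft attack the tissues of the recipient. Every recipient was irradiated with 900 cGy on day 0 and received T cell-depleted wild-type bone marrow carrying both CD45.1 and CD45.2, together with Foxp3-GFP+ CD25hi regulatory T (Treg) cells that carried CD45.2 alone; conventional CD4+ and CD8+ T cells from wild-type CD45.1+ mice followed 2 days later, and all donors were on the C57BL/6 background. The 4 libraries differed in the genotype of the Treg cells: CD226+/+ TIGIT+/+ (wild type), CD226-/- TIGIT+/+ (CD226 knockout), CD226+/+ TIGIT-/- (TIGIT knockout) and CD226-/- TIGIT-/- (double knockout). CD226 is an activating and TIGIT an inhibitory receptor that share ligands. Live H-2Kb+ TCRb+ cells were sorted on day 8, and each library was a pool of 3. Conventional cells were wild type in every library, so only Treg-origin cells differ in genotype by design. Treg-origin cells were sorted before transfer as GFP+ cells, and the labels do not say how many kept that state in the recipient.

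Each library held 8597 to 11126 barcodes and 84061005 to 87743463 UMIs. Of the cells kept, 332 to 462 per library were of Treg origin (CD45.1 over CD45.2 antibody counts below -0.6 on the log2 scale), 2750 to 3100 were conventional CD4 cells and 2098 to 3415 conventional CD8 cells (above 2.2). Pairs of libraries shared 23 to 36 barcode sequences. Transcripts of Cd226 stood at 31.2 and 32.5 CPM (counts scaled to the UMI total of the class and library) in Treg-origin cells of the libraries labelled wild type and TIGIT knockout, and at 4.01 and 4.39 CPM in those labelled CD226 knockout and double knockout. Transcripts of Tigit stood at 9.11 CPM in the wild-type library, 5.15 in the CD226-knockout, 8.60 in the TIGIT-knockout and 5.86 in the double-knockout library. The deleted part of that gene is not given in the sources used here, so UMIs read at the 3' end could not check the TIGIT labels, and the libraries are named by their labels throughout. Treg markers summed to 887 to 914 CPM in Treg-origin cells, 139 to 173 CPM in CD4 and 113 to 139 CPM in CD8 cells, and Foxp3 was 5.07 higher on the log2 scale in Treg-origin than in CD4 cells. Of the Treg-origin cells, 153 to 210 per library had more Cd4 than Cd8 UMIs and 10 to 22 had more Cd8 UMIs.

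Transcripts of other lineages were unevenly present among Treg-origin cells. The 5 neutrophil markers summed to 1795 CPM in the wild-type and 1671 CPM in the TIGIT-knockout library, against 4.58 and 3.90 CPM in the CD226-knockout and double-knockout libraries. The 5 erythroid markers summed to 997 CPM in the CD226-knockout library and to 16.2 to 43.4 CPM in the others, and the 5 B cell markers to 708 CPM there and 190 to 199 CPM in the others. Without cells holding 0.5% or more of their UMIs in such markers, an alternative chosen after the data had been seen, 27 members were lower in Treg-origin than in CD4 cells, against 31 with them. Few barcodes held such shares. The alternative kept 366 of 367 Treg-origin cells in the wild-type, 330 of 332 in the CD226-knockout and 459 of 462 in the TIGIT-knockout library. In the double-knockout library all 376 were kept.

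Promoters are shown for some of the members that carry an uncommon stress element, and those of Hsph1 and Dnajb6 are not printed. The heat shock element, to which heat shock factors bind, was searched on both strands as 3 alternating units of GAA and TTC with 2 bases between neighbours, in RefSeq promoters of GRCm38.p6, from 250 bases before to 50 bases after the start. It was found in 4 of the 52 members with a promoter entry (Hspd1, Hspe1, Hsph1 and Dnajb6), which is 7.69%, and in 0.662% of 27025 genes. Hsp90aa1, Hsp90ab1, Hspa8, Hspa9, Hspa13, Cct4, Dnajc2, Dnajc5, Dnajc11, Dnajc12, Dnajc18 and Dnajc30 had no promoter entry and were not searched. The shorter element of 2 such units, which every 3-unit element contains, was found in 25.0% of members and 17.0% of genes. Hspd1 and Hspe1, which encode the barrel and the lid of the mitochondrial chaperonin, lie head to head and share 1 run of 4 such units, which holds 2 overlapping matches, seen from opposite strands. It begins 144 bases before the start of Hspd1 and 89 before that of Hspe1. Capitals mark this run of 4 units, printed 5' to 3' on the strand of each gene, at chr1:55088054-55088086 (minus strand) and chr1:55088049-55088081 (plus strand).

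Hspd1: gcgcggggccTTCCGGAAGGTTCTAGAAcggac
Hspe1: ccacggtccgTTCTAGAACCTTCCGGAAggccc

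The ER stress element, CCAAT and CCACG with 9 bases between them on either strand, through which the unfolded protein response acts, was found in 3 members, Hspa5, Hsp90b1 and Dnajc3, which is 5.77%, and in 0.137% of genes. All 3 encode proteins of the ER lumen. The promoter of Hsp90b1 held 2 matches, of which the one farther from the start is printed, and those of Hspa5 and Dnajc3 held 1 each. In capitals, the element stood 65 bases before the start of Hspa5 (chr2:34772015-34772053, plus strand), 212 before that of Hsp90b1 (chr10:86705628-86705666, minus strand) and 105 before that of Dnajc3 (chr14:118937817-118937855, plus strand). A match is a run of letters and was not tested for binding.

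Hspa5: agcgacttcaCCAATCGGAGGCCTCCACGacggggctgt
Hsp90b1: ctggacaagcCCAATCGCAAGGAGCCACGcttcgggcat
Dnajc3: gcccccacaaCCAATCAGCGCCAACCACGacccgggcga

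Chaperone transcripts took a smaller share of the transcriptome in Treg-origin cells than in conventional cells. All members together summed to 10484 ± 432 CPM (SD, n = 4 libraries) in Treg-origin cells, 12788 ± 588 CPM in CD4 cells and 13894 ± 601 CPM in CD8 cells. The Treg-origin sums ended at 11106 CPM, below the lowest CD4 sum of 12236 CPM. In UMIs per cell, the same members gave a mean of 56.3 in Treg-origin, 119 in CD4 and 167 in CD8 cells, and total UMIs per cell moved the same way, with medians of 3921.5 to 5372, 7039.5 to 9013 and 8887 to 11901. Conventional cells with equal Cd4 and Cd8 UMIs, 1565 to 2775 per library, were left out of both classes, a limit not set for Treg-origin cells. Its part in these values was not tested. In sums over a class, fewer expressing cells and less RNA per cell cannot be told apart. Apart from the ratio of Hsp90aa1 to Hsp90ab1 given below, levels of different genes were not set against each other.

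**Figure D1:**
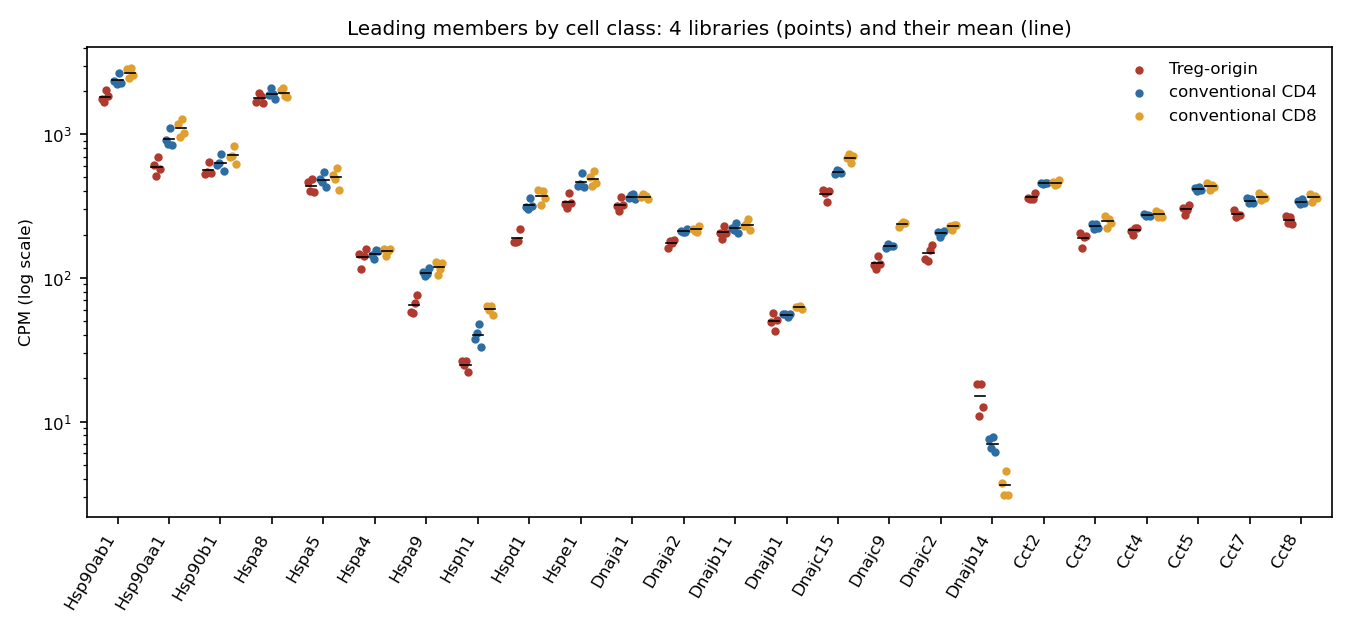
Levels of 24 leading members in the 3 cell classes, in CPM on a log axis; each point is 1 of 4 libraries and each line the mean. Hsp90aa1 lies at 509 to 694 CPM in Treg-origin cells, below the 835 to 1097 CPM of CD4 and the 963 to 1272 CPM of CD8 cells, whereas the Treg-origin and CD4 points of Hspa8 overlap.

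Gene by gene, edgeR's quasi-likelihood test with library as a block and Benjamini-Hochberg adjustment over 11814 genes called 31 members lower and 6 higher in Treg-origin than in CD4 cells, at an adjusted p of at most 0.05. Over all genes, 23.7% were called lower and 20.1% higher, 43.9% in all. The median log2 difference was -0.17 over members and -0.02 over all genes. Against CD8 cells, 34 members were lower and 6 higher, with backgrounds of 28.8% lower, 25.0% higher and 53.8% in all, and medians of -0.23 over members and -0.03 over all genes. Both comparisons use the same Treg-origin sums and are not independent. Of the members called lower, 22 of 31 had no overlap between Treg-origin and CD4 libraries and 26 of 34 none between Treg-origin and CD8 libraries. Over all genes called lower, the groups did not overlap for 70.8% and 72.2%, so the members' shares of 71% and 76.5% were near the background. The n is 4 libraries throughout, and the labels do not say whether the pools were separate experiments. With library as a block, p-values measure how the class differences varied between these libraries, which also differed in Treg genotype.

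**Figure D2:**
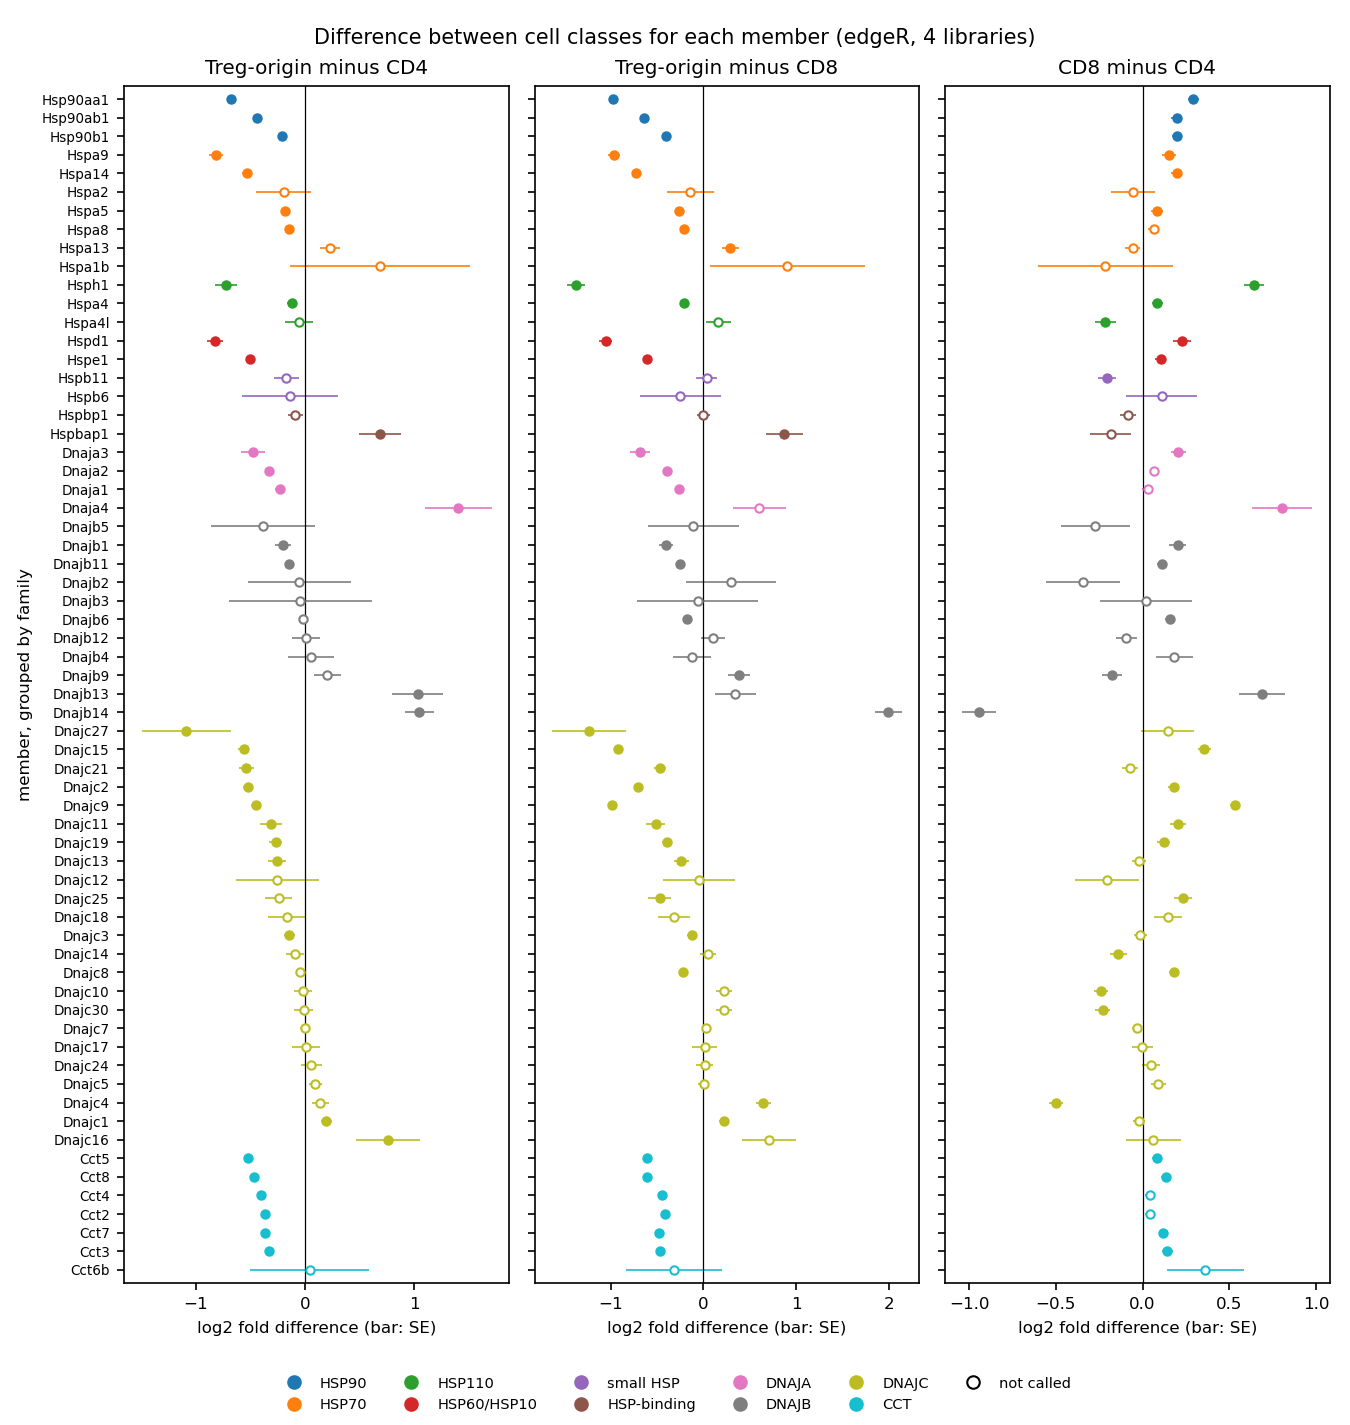
Log2 difference for each of the 64 members between cell classes, with bars for the SE and open circles for members not called. In the Treg-origin panels, 31 and 34 filled points lie left of 0 and 6 lie right of it in each; in the panel of CD8 against CD4 cells, 27 lie to the right and 8 to the left.

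All 3 HSP90 genes were lower in Treg-origin cells. Hsp90aa1, the inducible cytosolic HSP90, stood at 608, 509, 694 and 571 CPM in Treg-origin cells (given first for wild type, then for CD226 knockout, TIGIT knockout and finally the double knockout, here and below), at 905, 852, 1097 and 835 CPM in CD4 cells, and at 1180, 963, 1272 and 1020 CPM in CD8 cells. Every Treg-origin value lay below every conventional value. The difference was -0.68 ± 0.04 (log2 ± SE, adjusted p = 4.01e-10) from CD4 and -0.97 ± 0.04 (adjusted p = 2.01e-12) from CD8 cells, a level 1.60-fold and 1.96-fold higher in the conventional cells.

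Hsp90ab1, the constitutive cytosolic form, stood at 1771, 1680, 2019 and 1835 CPM in Treg-origin cells, 2364, 2255, 2660 and 2285 CPM in CD4 cells and 2856, 2447, 2876 and 2573 CPM in CD8 cells. Again no Treg-origin library reached a conventional one, and the differences were -0.44 ± 0.03 (adjusted p = 1.69e-08) and -0.64 ± 0.03 (adjusted p = 9.51e-11). The ratio of Hsp90aa1 to Hsp90ab1 UMIs was 0.303 to 0.344 in Treg-origin, 0.366 to 0.412 in CD4 and 0.393 to 0.442 in CD8 cells, and the ranges of CD4 and CD8 cells overlapped. In cells with few proliferation UMIs, described further on, the order of Treg-origin and CD4 cells turned, with ratios of 0.217 to 0.247 in Treg-origin, 0.191 to 0.200 in CD4 and 0.190 to 0.216 in CD8 cells. Hsp90b1 (GRP94), the HSP90 of the ER, had overlapping groups, with 533, 547, 644 and 540 CPM in Treg-origin cells and 612, 633, 732 and 556 CPM in CD4 cells. Within each library the Treg-origin value was the lower one, and the difference of -0.21 ± 0.03 (adjusted p = 6.72e-05) was the smallest of the family. It was -0.41 ± 0.03 (adjusted p = 2.41e-08) from CD8 cells, at 696, 707, 827 and 617 CPM.

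Among the 7 HSP70 genes, 4 were lower in Treg-origin than in CD4 cells and 3 were not called. Hspa9 (mortalin), which pulls imported proteins into mitochondria, gave the largest of these differences. Its values were 57.7, 57.2, 66.9 and 76.1 CPM in Treg-origin cells, 110, 102, 106 and 116 CPM in CD4 cells and 129, 104, 115 and 126 CPM in CD8 cells. The classes were well apart, with differences of -0.81 ± 0.06 (adjusted p = 3.79e-08) and -0.96 (adjusted p = 2.19e-09).

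Hspa14, which works at the ribosome together with the J-protein Dnajc2, was at 94.1, 76.7, 86.0 and 86.9 CPM in Treg-origin cells and at 118 to 124 CPM in CD4 cells, a difference of -0.53 ± 0.05 (adjusted p = 1.66e-07). Its partner Dnajc2 moved by nearly the same amount: 135, 132, 157 and 170 CPM against 194 to 213 CPM in CD4 cells, or -0.52 (adjusted p = 9.30e-08). Both genes of this ribosome-bound pair were again lower against CD8 cells, at -0.73 and -0.70. In cells with few proliferation UMIs the calls of Hspa14 ended, at -0.29 from CD4 (adjusted p = 0.0673) and -0.32 from CD8 cells (adjusted p = 0.0660), and Dnajc2 was called at -0.28 and -0.27.

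The constitutive cytosolic Hspa8 (HSC70) stood at 1678, 1949, 1857 and 1647 CPM in Treg-origin and 1869, 2092, 1896 and 1752 CPM in CD4 cells. These ranges overlapped, although each library had the lower value in its Treg-origin cells, and the difference was -0.14 ± 0.03 (adjusted p = 2.45e-03). This call ended without library as a block, and in cells with few proliferation UMIs, described further on, Hspa8 was called higher. Hspa5 (BiP), the HSP70 of the ER, likewise overlapped, at 399 to 489 CPM in Treg-origin and 427 to 543 CPM in CD4 cells, with a difference of -0.18 ± 0.04 (adjusted p = 9.50e-04). Hspa13, a microsomal HSP70-like protein, went the other way against CD8 cells: 17.7 to 19.5 CPM against 13.8 to 15.3 CPM, or 0.29 higher (adjusted p = 0.0407), a call that ended without the wild-type library (0.28), without the CD226-knockout library (0.31) and without the double-knockout library (0.29).

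The classic stress-inducible HSP70 genes, near-identical copies whose reads the counting may have split or dropped, were hardly detected. Hspa1b gave 5 UMIs in all Treg-origin cells together, 40 in CD4 and 40 in CD8 cells, and was not called in any comparison. Hspa1a, below the member threshold, gave 0 UMIs in Treg-origin cells, which over 8196347 UMIs allows up to 0.366 CPM, 30 UMIs in CD4 and 24 in CD8 cells, where it averaged 0.276 and 0.183 CPM. A difference of that size was not detectable at this depth. Hspb1, the best known small heat shock protein and also below the threshold, reached at most 0.0786 CPM. Hspa2, a testis-rich HSP70, lay between 1.95 and 5.15 CPM in every class and was not called.

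Of the HSP110 branch, Hsph1 (HSP105) gave the largest difference between Treg-origin and CD8 cells among the members called lower. It stood at 26.5, 24.6, 26.3 and 22.0 CPM in Treg-origin cells, at 37.4, 41.5, 47.9 and 32.8 CPM in CD4 cells and at 64.2, 59.9, 63.5 and 55.0 CPM in CD8 cells. The 3 classes did not overlap. The log2 difference was -0.73 ± 0.10 from CD4 cells (adjusted p = 1.90e-05) and -1.37 ± 0.10 from CD8 cells (adjusted p = 4.72e-09), where the level was 2.58-fold that of Treg-origin cells. Hspa4 (APG-2) was called lower than in CD4 cells at -0.12 ± 0.05 (adjusted p = 0.0472), but this call ended with any 1 library left out (-0.14 without wild type, -0.07 without CD226 knockout, -0.09 without TIGIT knockout and -0.14 without double knockout). Hspa4l was not called between Treg-origin and conventional cells, with 19.5 to 22.0 CPM in the former.

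Both genes of the mitochondrial chaperonin, whose shared promoter is printed above, were lower in Treg-origin cells. Hspd1 (HSP60) stood at 179, 177, 181 and 221 CPM in Treg-origin, 313, 304, 360 and 314 CPM in CD4 and 408, 322, 401 and 357 CPM in CD8 cells. The lowest conventional library lay well above the highest Treg-origin one, and the differences were -0.82 ± 0.07 (adjusted p = 1.01e-07) and -1.05 ± 0.07 (adjusted p = 2.60e-09). Hspe1 (HSP10) stood at 325, 305, 392 and 334 CPM in Treg-origin, 437, 451, 535 and 432 CPM in CD4 and 504, 439, 559 and 454 CPM in CD8 cells. Its difference from CD4 cells, -0.50 ± 0.04 (adjusted p = 4.62e-08), was smaller than that of Hspd1, and the difference between the 2 genes was not tested.

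CCT, the cytosolic chaperonin, was lower as a near-complete complex. Its named subunits summed to 1492 to 1653 CPM in Treg-origin cells, 2003 to 2111 CPM in CD4 and 2023 to 2256 CPM in CD8 cells. Cct2, Cct3, Cct4, Cct5, Cct7 and Cct8 were all called lower in both comparisons, and for none of them did a Treg-origin library overlap a conventional one. Cct5 showed the largest difference from CD4 cells: 308, 273, 298 and 320 CPM against 423, 404, 431 and 410 CPM, or -0.53 ± 0.04 (adjusted p = 7.08e-09).

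Cct8 followed with 271, 241, 264 and 237 CPM against 345, 326, 352 and 331 CPM (-0.47, adjusted p = 1.27e-08). The other subunits differed by -0.40 (Cct4), -0.37 (Cct2), -0.36 (Cct7) and -0.33 (Cct3), a narrow band. Tcp1, the subunit outside the naming rule, was at 195 to 245 CPM in Treg-origin and 291 to 310 CPM in CD4 cells, -0.52 ± 0.04 (adjusted p = 3.43e-08), within the range of the named subunits. Cct6b, a testis-rich subunit, was near the detection limit with 7 UMIs in all Treg-origin cells, and was not called.

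The DNAJA proteins are the closest relatives of the bacterial DnaJ and feed clients to HSP70. Dnaja1 and Dnaja2 (cytosolic) and Dnaja3 (mitochondrial) were lower in Treg-origin than in CD4 cells. Dnaja2 was at 161, 180, 174 and 185 CPM against 211, 209, 208 and 218 CPM, without overlap (-0.33, adjusted p = 2.75e-06). Dnaja1 had overlapping groups, at 291 to 365 and 354 to 383 CPM (-0.23, adjusted p = 2.01e-04). Dnaja3 was low, at 13.0 to 14.3 CPM against 17.4 to 19.8 CPM (-0.48 ± 0.11, adjusted p = 1.84e-03). Dnaja4 was the exception, higher in Treg-origin than in CD4 cells at 3.04, 6.29, 4.78 and 4.39 CPM against 1.40 to 1.87 CPM (1.40 ± 0.31, adjusted p = 1.33e-03), on 7 to 11 UMIs per library. In the Treg-origin library with 7 UMIs, the 5 leading cells held 71.4% of them, the smallest share possible with so few UMIs.

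DNAJB genes showed no common direction between Treg-origin and CD4 cells: 2 were higher, 2 lower and 7 not called. Dnajb1 (HSP40), the inducible partner of HSP70, was at 49.4, 56.7, 42.5 and 51.2 CPM in Treg-origin and 55.7, 56.2, 53.6 and 55.9 CPM in CD4 cells. The groups overlapped, and the call (-0.20 ± 0.07, adjusted p = 0.0329) ended without the wild-type library (-0.19), without the TIGIT-knockout library (-0.14) and without the double-knockout library (-0.20). Against CD8 cells, at 60.6 to 63.5 CPM, the difference of Dnajb1 was -0.40 (adjusted p = 1.49e-04) and was called with each library left out. Dnajb6, which keeps aggregation-prone proteins soluble, was at 189 to 205 CPM in Treg-origin and 189 to 200 CPM in CD4 cells and was not called there (-0.02), but was lower than in CD8 cells at 206 to 215 CPM (-0.17, adjusted p = 5.06e-04).

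Dnajb14, an ER-membrane J-protein, was the member most clearly higher in Treg-origin cells. It stood at 18.2, 10.9, 18.1 and 12.7 CPM there, at 7.52, 6.54, 7.84 and 6.13 CPM in CD4 cells and at 3.72, 3.06, 4.52 and 3.06 CPM in CD8 cells. The 3 classes were fully apart in the order opposite to that of Hsph1, and the level was 2.07-fold that of CD4 cells (1.05 ± 0.14, adjusted p = 9.97e-06) and 3.98-fold that of CD8 cells (1.99 ± 0.15, adjusted p = 7.35e-09). The Treg-origin sums rest on 19 to 42 UMIs per library. The 5 leading cells held at most 26.3% of them, which is the smallest share possible in the library with 19 UMIs. Dnajb13, a ciliary and sperm-tail J-protein, was also higher than in CD4 cells, at 4.34, 8.01, 8.12 and 5.86 CPM against 2.48 to 3.62 CPM (1.03 ± 0.23, adjusted p = 1.75e-03), but overlapped CD8 cells. The remaining DNAJB genes, Dnajb2, Dnajb3, Dnajb4, Dnajb5 and Dnajb12, lay at or below 14.8 CPM in every sum and were called in none of the 3 comparisons.

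DNAJC, the most diverse class, held 9 genes lower and 2 higher in Treg-origin than in CD4 cells, with 12 not called. Dnajc15 (MCJ), an inner-membrane protein known in mouse CD8 T cells as a brake on mitochondrial respiration, was at 410, 387, 336 and 401 CPM in Treg-origin, 533, 561, 556 and 538 CPM in CD4 and 685, 723, 634 and 710 CPM in CD8 cells. No classes overlapped, and the differences were -0.56 ± 0.05 (adjusted p = 9.01e-08) from CD4 and -0.92 ± 0.05 (adjusted p = 1.21e-10) from CD8 cells. Dnajc9, known from human cells as a chaperone of histones H3 and H4, was at 123, 116, 142 and 124 CPM, then 162, 172, 168 and 166 CPM, then 225, 236, 243 and 243 CPM in the same order of classes. It too separated all 3 classes, with -0.45 ± 0.04 (adjusted p = 4.33e-07) from CD4 and -0.98 ± 0.04 (adjusted p = 1.41e-11) from CD8 cells.

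Dnajc21, which takes part in the maturation of the large ribosomal subunit, was at 47.3 to 54.2 CPM in Treg-origin and 68.2 to 73.4 CPM in CD4 cells (-0.54, adjusted p = 5.78e-06). Dnajc19, part of the mitochondrial import motor, differed by -0.27 (adjusted p = 9.83e-04) and Dnajc11, of the mitochondrial inner-membrane organising system, by -0.31 (adjusted p = 0.0345); the call of Dnajc11 ended without the wild-type library (-0.31), the CD226-knockout library (-0.23) or the double-knockout library (-0.27). Dnajc27, a small GTPase with a J domain, had the lowest log2 difference from CD4 cells of all members, -1.09 ± 0.41 (adjusted p = 0.0404), but on 0 to 4 UMIs per Treg-origin library, and its call ended without the wild-type library (-1.25), the CD226-knockout library (-0.76) or the double-knockout library (-0.99). The endosomal Dnajc13 (-0.26, adjusted p = 0.0353) lost its call without the CD226-knockout (-0.21), TIGIT-knockout (-0.25) or double-knockout library (-0.20).

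In the other direction, the ER-membrane protein Dnajc1 was at 107, 122, 118 and 109 CPM in Treg-origin and 95.4, 98.7, 94.3 and 96.2 CPM in CD4 cells (0.20 ± 0.05, adjusted p = 3.17e-03), and was 0.22 higher than in CD8 cells (adjusted p = 1.06e-03). All 4 Treg-origin libraries lay above all conventional ones. Dnajc4 separated Treg-origin from CD8 cells, at 28.6 to 35.8 CPM against 18.2 to 20.9 CPM (0.64 ± 0.08, adjusted p = 3.67e-06), and was not called against CD4 cells. Dnajc16 was called higher than in CD4 cells (0.76 ± 0.29, adjusted p = 0.0446) at 2.60 to 4.01 CPM, a call that ended with any 1 library left out (0.84 without wild type, 0.80 without CD226 knockout, 0.68 without TIGIT knockout and 0.78 without double knockout). Dnajc5, Dnajc7, Dnajc10, Dnajc12, Dnajc14, Dnajc17, Dnajc18, Dnajc24 and Dnajc30 were called in neither comparison with Treg-origin cells. Dnajc8, bound to the splicing machinery, and Dnajc25 were called lower against CD8 cells, at -0.22 (adjusted p = 3.84e-05) and -0.47 (adjusted p = 3.29e-03), and were not called against CD4 cells, at -0.04 and -0.24.

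Of the genes grouped by name as small heat shock proteins and those named for binding heat shock proteins, Hspbap1 was higher in Treg-origin cells. It stood at 7.37, 11.4, 9.07 and 5.37 CPM against 4.70 to 5.11 CPM in CD4 cells (0.69 ± 0.19, adjusted p = 8.58e-03). That call ended without the CD226-knockout library, with a value of 0.51, and in cells with few proliferation UMIs, at 0.22 (adjusted p = 0.589). It also ended in cells of 3000 to 8000 UMIs, at 0.27 (adjusted p = 0.465), and with cells thinned to 2000 UMIs, at 0.65 (adjusted p = 0.116). Hspbp1, an exchange factor of HSP70, lay at 35.5 to 44.9 CPM in Treg-origin and 38.8 to 43.4 CPM in CD4 cells and was not called, and neither were Hspb11 at 17.1 to 17.8 CPM and Hspb6 at 0 to 4.58 CPM.

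By compartment, a list of 7 mitochondrial members had been drawn up by hand, with earlier results of these data known. Its counts are therefore description and no test of a pattern by compartment. It leaves out Dnajc30, another mitochondrial protein, which was called in neither comparison (-0.0084 from CD4 and 0.22 from CD8 cells). Over all genes, 23.7% were called lower and 20.1% higher than in CD4 cells, and 28.8% lower and 25.0% higher than in CD8 cells. All 7 on the list (Hspa9, Hspd1, Hspe1, Dnaja3, Dnajc15, Dnajc19 and Dnajc11) were lower in Treg-origin cells against both CD4 cells, with a median log2 difference of -0.50 and a range of -0.82 to -0.27, and CD8 cells, with a median of -0.68. Of the 9 ER members on a second such list, which leaves out the ER-membrane protein Dnajb14, higher in both comparisons, and other members of that membrane, 4 were lower and 1 higher than in CD4 cells (median -0.14), and 5 lower and 3 higher than in CD8 cells (median -0.13). The 3 genes with an ER stress element were among the lower ones, at -0.21 for Hsp90b1, -0.18 for Hspa5 and least for Dnajc3. Dnajc3 (p58IPK), an ER partner of BiP, differed by -0.14 (adjusted p = 0.0335) with 173 to 203 CPM in Treg-origin and 194 to 207 CPM in CD4 cells. Its call ended without the CD226-knockout (-0.11), TIGIT-knockout (-0.08) or double-knockout library (-0.14). Dnajb11 (ERdj3) was at 188 to 230 CPM against 206 to 242 CPM (adjusted p = 5.52e-03), and its call ended without the CD226-knockout library at -0.10. Dnajb9 (ERdj4), a BiP partner raised by the unfolded protein response, was not called against CD4 cells (0.21) and was higher than in CD8 cells, at 13.4 CPM or more against 11.6 to 12.8 CPM (0.38 ± 0.12, adjusted p = 0.0146). That call ended without the double-knockout library, at 0.34.

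Of the partners of these chaperones, cochaperones and mitochondrial genes went largely the same way, whereas ER genes went both ways. Over all genes, 23.7% were called lower and 20.1% higher in Treg-origin than in CD4 cells, the background for each list that follows. Of 27 cochaperones of HSP90 and HSP70, 17 were lower and 1 higher in Treg-origin than in CD4 cells (median -0.24). Fkbp4 and Ppid, which dock on HSP90, differed by -0.72 ± 0.07 (adjusted p = 2.36e-07) and -0.72 ± 0.06 (adjusted p = 1.47e-07), and Bag2, which acts on HSP70, by -1.18 ± 0.24 (adjusted p = 6.63e-04). The one higher gene was Hsbp1, a binder of heat shock factor, at 0.13 (adjusted p = 0.0299). Of 15 prefoldin subunits and CCT partners, 8 were lower and 1 higher; Pfdn4 differed by -0.48 and Pfdn5 by 0.28 (adjusted p = 2.01e-07), although both encode subunits of prefoldin.

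Of 10 further mitochondrial chaperones and proteases, 7 were lower and none higher (median -0.33), among them Timm9 (-0.72), Trap1, the mitochondrial HSP90 (-0.50), and the protease Lonp1 (-0.41). Of 20 ER folding and unfolded protein response genes, 8 were lower and 5 higher (median -0.09): the lectin chaperone Canx was lower (-0.36), whereas the stress sensor Ern1 (1.34 ± 0.23) and the transcription factor Ddit3 (1.04 ± 0.10, adjusted p = 3.16e-07) were higher. The 5 higher ER genes of 20 were near the 20.1% of all genes called higher than in CD4 cells. Against CD8 cells the same lists gave 20 lower and 2 higher cochaperones, 8 lower mitochondrial genes and 11 lower and 3 higher ER genes. There the background was 28.8% lower and 25.0% higher. Hsf1, the main heat shock factor, was not called, at 11.7 to 16.2 CPM in Treg-origin and 15.5 to 17.4 CPM in CD4 cells (-0.31 ± 0.10, adjusted p = 0.0514), nor was Hsf2. Hsf4 was called lower (-1.95 ± 0.41, adjusted p = 9.62e-04) on 1 to 2 UMIs per Treg-origin library, at 0.572 to 0.976 CPM against 2.59 to 3.63 CPM in CD4 cells.

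Immediate early genes, which rise within minutes of stimulation or tissue dissociation, moved the opposite way: 11 of 17 were higher and none lower in Treg-origin than in CD4 cells (median 0.60), and their summed level was 1601 to 1717 CPM in Treg-origin, 1100 to 1247 CPM in CD4 and 985 to 1043 CPM in CD8 cells. Fos was 1.61 and Atf3 1.91 higher on the log2 scale. Against CD8 cells 14 were higher and 1 lower. The part of this difference in the chaperone values was not tested.

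Proliferation genes moved with the chaperones. All 21 of the list were lower in Treg-origin cells against CD4 (median -0.71) and against CD8 cells (median -0.86), and their summed level was 2634 to 3620 CPM in Treg-origin, 4698 to 5212 CPM in CD4 and 5204 to 5570 CPM in CD8 cells. The comparison was therefore repeated in cells with under 0.1% of their UMIs in these genes, 214 to 250 Treg-origin, 691 to 918 CD4 and 154 to 314 CD8 cells per library. There 52 members were tested; 22 were lower and 5 higher in Treg-origin than in CD4 cells (background 14.1% lower and 15.7% higher), and 21 lower and 2 higher than in CD8 cells (background 16.2% and 15.7%).

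The 6 CCT subunits tested there were all lower (median -0.41 from CD4 cells), and Hspa9, Hspd1, Hspe1 and Dnajc15 stood at -0.85, -0.67, -0.52 and -0.57, against -0.81, -0.82, -0.50 and -0.56 in all cells. Hsp90ab1 was at -0.54, against -0.44. Hsp90aa1, by contrast, differed by -0.31 from CD4 cells, against -0.68 in all cells, and by -0.32 from CD8 cells, against -0.97. Its mean level there was 328 CPM in Treg-origin, 399 CPM in CD4 and 389 CPM in CD8 cells, against 596, 922 and 1109 CPM in all cells of these classes.

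Hsp90b1 was not called there against CD4 cells (-0.09, adjusted p = 0.227), and Hspa8 was called higher in Treg-origin cells (0.10, adjusted p = 0.0234), the reverse of its direction in all cells. Dnajb1 stood at 0.21 and Hspa4 at 0.05, both without a call and with the opposite sign to that in all cells. Dnajb14 remained higher, at 0.70 against CD4 and 1.23 against CD8 cells, as did Dnaja4 (1.04) and Dnajc1 (0.26) against CD4 cells, and Dnajc5, the cysteine string protein, was called higher there at 0.35.

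**Figure D3:**
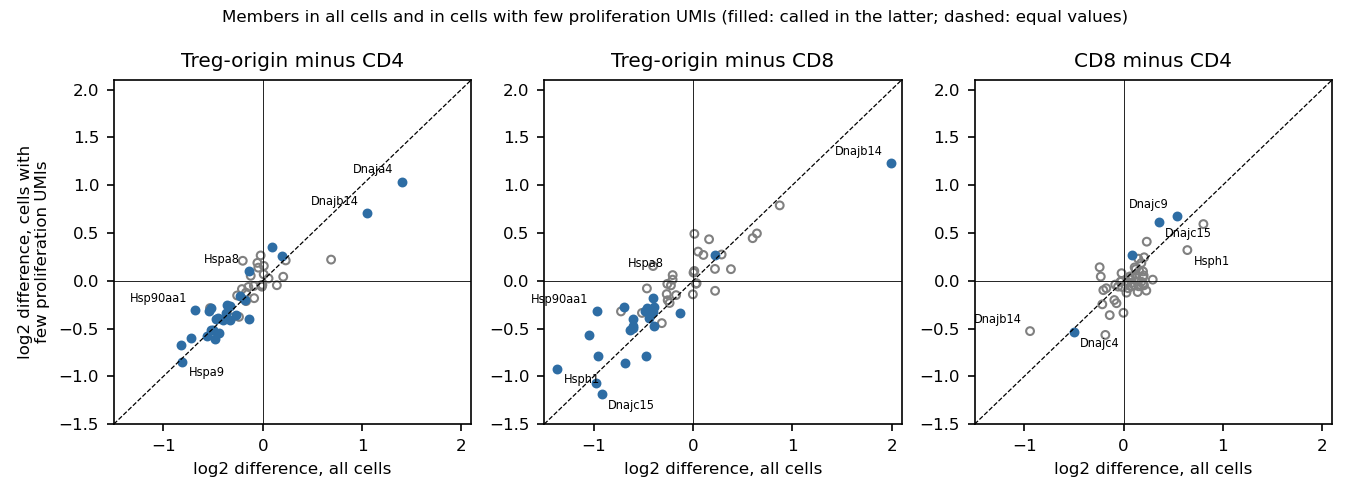
Log2 difference of each of 52 members in all cells (x axis) and in cells with under 0.1% proliferation UMIs (y axis); filled points were called in the latter and the dashed line marks equal values. Against CD4 cells, Hspa9 lies on the line at -0.81 and -0.85 and Hsp90aa1 above it at -0.68 and -0.31; in the panel of CD8 against CD4 cells most points lie near 0 on the y axis, with 3 called higher and 1 lower.

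Between the conventional classes, 27 members were higher and 8 lower in CD8 than in CD4 cells, with backgrounds of 21.1% higher, 18.1% lower and 39.1% in all, and medians of 0.08 over members and 0.01 over all genes. These sums also enter the comparisons above. All 3 HSP90 genes were higher in CD8 cells, Hsp90aa1 by 0.29 ± 0.03 (adjusted p = 2.30e-06), Hsp90ab1 by 0.20 ± 0.03 (adjusted p = 9.57e-05) and Hsp90b1 by 0.20 ± 0.03 (adjusted p = 4.96e-05), although their libraries overlapped between the classes. Hsph1 gave 0.64 ± 0.06 (adjusted p = 4.01e-07), Dnajc9 0.53 ± 0.03 (adjusted p = 9.86e-10) and Dnajc15 0.36 ± 0.04 (adjusted p = 3.24e-06), each without overlap.

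All 7 members on the mitochondrial list were called higher in CD8 cells (median 0.21), whereas Dnajc30, which that list leaves out, was lower. As that list was drawn up with earlier results known, its count is description only. The CCT subunits differed little: Cct3, Cct5, Cct7 and Cct8 were higher by 0.14, 0.08, 0.12 and 0.14, and Cct2 and Cct4 were not called at 0.04 each. The call of Cct3 ended without the wild-type library (0.10), as did those of Hspd1 (0.23, and 0.15 without it), Hspa9 (0.15, and 0.10 without it), Dnajc11 (0.16 without it) and Dnajc19 (0.10 without it, and 0.12 without the TIGIT-knockout library). Hspe1 lost its call without the wild-type (0.05) or the double-knockout library (0.09), and Cct5 without the wild-type (0.05), CD226-knockout (0.09) or double-knockout library (0.07).

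Lower in CD8 than in CD4 cells were Dnajb14 (-0.94 ± 0.10, adjusted p = 1.43e-06), Dnajc4 (27.0 to 28.5 CPM in CD4 and 18.2 to 20.9 CPM in CD8 cells, -0.50 ± 0.04, adjusted p = 1.48e-07), the ER disulphide reductase Dnajc10 (-0.24, adjusted p = 1.75e-04), Dnajc30 (-0.23, adjusted p = 4.33e-04), Hspa4l (-0.21), Hspb11 (-0.20), Dnajb9 (-0.17) and Dnajc14 (-0.14). The call of Hspa4l ended without the wild-type library (-0.13), that of Hspb11 without the TIGIT-knockout library (-0.15), that of Dnajb9 without the CD226-knockout (-0.17) or TIGIT-knockout library (-0.12), and that of Dnajc14 without the wild-type (-0.14), CD226-knockout (-0.13) or TIGIT-knockout library (-0.15). Proliferation genes were again on the side of the higher class, with 12 of 21 higher in CD8 cells. In cells with few proliferation UMIs, 3 members were higher and 1 lower (background 7.24% and 6.74%): Dnajc9 (0.67), Dnajc15 (0.61) and Dnajc5 (0.26) were higher and Dnajc4 (-0.54) lower, while Hsp90aa1 stood at 0.01 (adjusted p = 0.936) and Hsph1 at 0.32 (adjusted p = 0.107).

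Between Treg genotypes, the count of members past 1.5-fold was near the share over all genes, given below, and is no trait of the members. Each genotype is 1 library, so there is no test, and ratios carry exact 95% Poisson intervals for counting error alone. Among the 40 members that averaged 20 CPM or more in Treg-origin cells, 1 differed by more than 1.5-fold in any of the 4 contrasts of single receptor loss, on log2 ratios with a pseudocount of 1 CPM. It was Dnajc24, which takes part in the synthesis of diphthamide: 24.9 CPM in the double-knockout against 38.9 CPM in the CD226-knockout library, a ratio of 0.640 (0.436 to 0.933). The interval takes no account of Dnajc24 being the most extreme of these ratios. The shares of all such genes past 1.5-fold in Treg-origin cells were 3.25% for CD226 loss with TIGIT present, 3.5% for CD226 loss with TIGIT absent, 2.17% for TIGIT loss with CD226 present and 4.02% for TIGIT loss with CD226 absent.

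The median member ratio in Treg-origin cells was -0.06 and -0.03 on the log2 scale for CD226 loss with TIGIT present and absent, with 14 and 18 of 40 members above 0. For TIGIT loss with CD226 present and absent it was 0.07 and 0.08, with 27 and 29 of 40 above 0. Over all genes the medians in these 4 contrasts were -0.015, -0.0035, 0.017 and 0.025, in the same order. The shares of all genes above 0 were 47.1%, 49.2%, 54.3% and 54.8%. With the stricter antibody ratio the medians for TIGIT loss were 0.0037 and -0.0063, against 0.016 and 0.021 over all genes, and in cells with few proliferation UMIs the median for CD226 loss with TIGIT absent was 0.046. Conventional cells, wild type in every library, had member medians of similar size without these limits. In the same order of contrasts they were -0.017, -0.050, 0.035 and 0.0094 in CD4 and -0.072, -0.045, -0.00073 and 0.049 in CD8 cells. In Treg-origin cells the neutrophil markers stood at 1795, 4.58, 1671 and 3.90 CPM in the order of libraries given above. Few barcodes were rich in other-lineage markers, as described there, so these values do not give a neutrophil share by genotype. The proliferation genes summed to 3196, 2634, 3620 and 3142 CPM in Treg-origin cells, in the same order. The part of these markers and genes in the ratios was not tested. TIGIT status follows the lane number (3 or 4) in the labels, so TIGIT loss and lane cannot be told apart, and the contrasts share libraries. The ratio of the highest to the lowest library had a median of 1.21 over members in Treg-origin, 1.08 in CD4 and 1.12 in CD8 cells. No such median was taken over all genes.

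In conventional cells, which were wild type in every library, no member passed 1.5-fold. In the same order of contrasts, 0.197%, 0.472%, 0.118% and 0.0393% of all genes did in CD4 cells and 0.258%, 0.476%, 0.238% and 0.119% in CD8 cells. At such shares, none passing would be usual for any gene set of this size, so the count does not mark the members as stable. Among the members, Hsph1 had the widest spread over CD4 libraries and Hspa5 over CD8 libraries. Their ratios of highest to lowest library exceeded those of 98.9% and 98.7% of genes averaging 20 CPM or more. Hsp90b1 exceeded 97.2% in CD4 and 97.3% in CD8 cells, and Hsp90aa1 97.1% and 96.7%. Other members lay low, such as Cct2 in CD4 cells at 1.24% and Dnajb6 in CD8 cells at 7.27%. In CD4 cells, Hsph1 was at 37.4, 41.5, 47.9 and 32.8 CPM, so the double-knockout library had 0.685 (0.626 to 0.748) times the level of the TIGIT-knockout library. In CD8 cells, Hspa5 was at 524, 489, 586 and 411 CPM, a ratio of 0.702 (0.687 to 0.717) between the same libraries, and Hsp90b1 gave 0.746 (0.733 to 0.759). The TIGIT-knockout library was the highest and the double-knockout library the lowest for Hsp90b1 and Hspa5 in both conventional classes, and in Treg-origin cells Hspa5 was again highest in the TIGIT-knockout library, at 489 CPM. In Hsp90aa1, too, the TIGIT-knockout library was the highest in all 3 classes.

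**Figure D4:**
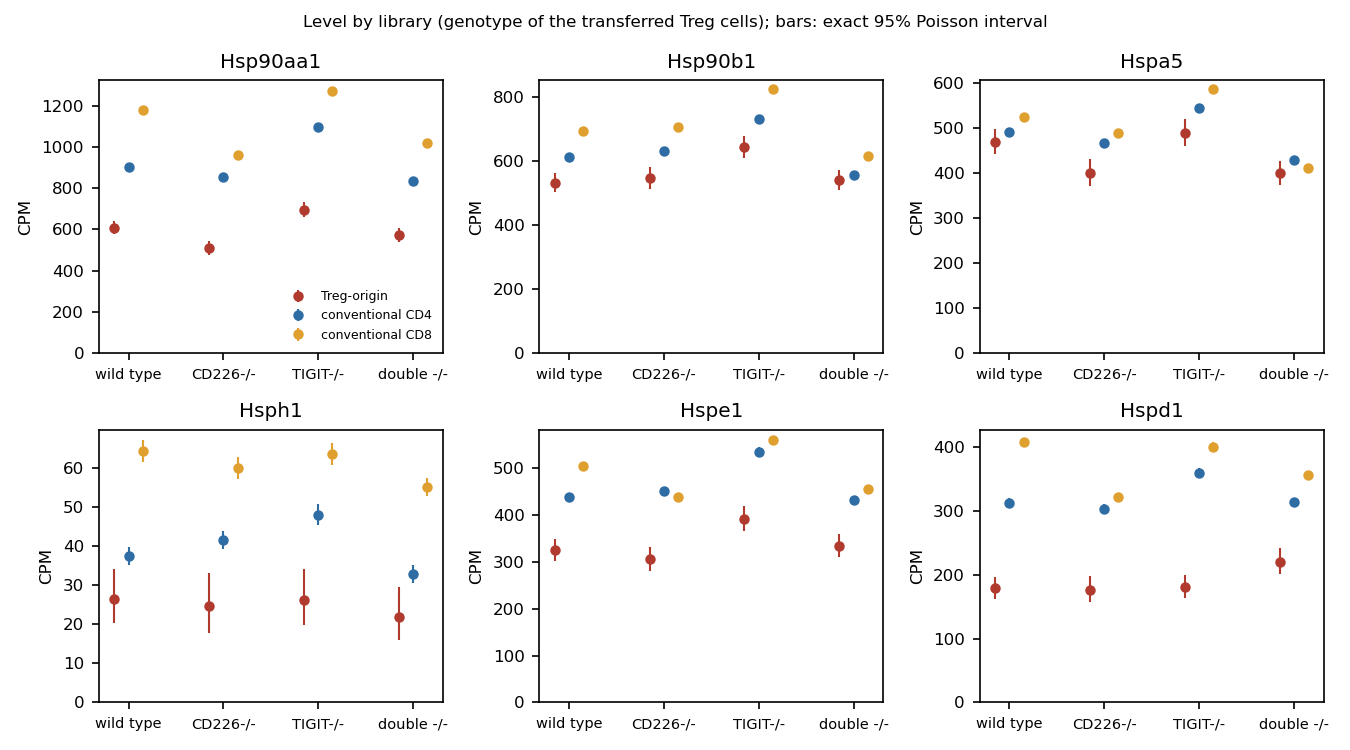
Levels of Hsp90aa1, Hsp90b1, Hspa5, Hsph1, Hspe1 and Hspd1 in CPM in each of the 4 libraries and 3 cell classes, with exact 95% Poisson intervals for counting error. The TIGIT-knockout library gives the highest Hsp90aa1 level in every class (694, 1097 and 1272 CPM), and within each library the Treg-origin level of Hsp90aa1 lies below the conventional levels.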

How the data were processed

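The deposited files hold raw UMI counts per gene and cell barcode and antibody counts for CD45.1 and CD45.2, as 1 filtered matrix for each of 4 libraries. The authors made them with 10x 3' v3 kits, per the labels' protocols, and with Cell Ranger 3.1.0 on mm10, per the submitters' processing notes; the annotation release is not given in the sources used here.

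Cells were kept from 500 genes upward and up to 10% mitochondrial UMIs. Origin was read from the log2 ratio of antibody counts (below -0.6 Treg origin, above 2.2 conventional), and cells in between, where doublets and bone marrow progeny fall, were left out. No doublet caller was used; an alternative drops cells of very high depth and cells with Cd4 and Cd8 UMIs. A conventional cell was CD4 or CD8 according to which of Cd4 and the sum of Cd8a and Cd8b1 had more UMIs. Those with equal counts, 1565 to 2775 of 6413 to 8777 conventional cells per library, were left out. No such limit was set for Treg-origin cells. UMIs were summed per class and library (12 sums of 1747477 to 39929802 UMIs) and scaled to CPM. Sums were tested with the quasi-likelihood test of edgeR 4.0.16 (R 4.3.3), with TMM scaling, filterByExpr, a library block and Benjamini-Hochberg adjustment over 11814 genes at 0.05, after testing on simulated data. The printed SE is the fold over the square root of F. The classes of 1 library come from the same pool, and that is what pairs them. Genotypes have 1 library each and no test; they were compared by CPM with exact 95% Poisson intervals (scipy 1.17.1).

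Named members are all HSP90, HSP110, HSP60/HSP10 and CCT genes, the 4 most abundant of each other family, stress-inducible and ER members, the 5 most changed per direction among those called and the 3 most variable between libraries in each class; the others were named after their values had been seen, to account for all members. The members and lists were chosen with earlier results of these data known. Promoters came from RefSeq. A planned reading of protein sequences was not made. Alternatives included DESeq2 1.42.0.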

Additional observations from a re-analysis of the deposited data

Results flagged for a closer look

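The log2 ratios of CPM between classes were read in each of the 4 libraries, with a pseudocount of 1 CPM. They carry no TMM scaling and so lie on another scale than the edgeR differences given above. In all, 5 of 138 sets of 4 held a library that stood apart from the other 3, where chance gives about 1 in 20. In 4 of them it was the double-knockout library. Hsp90b1 was -0.043 between Treg-origin and CD4 cells there, against -0.21 to -0.18 in the other libraries, and -0.19 between Treg-origin and CD8 cells, against -0.39 to -0.36. Cct2 was -0.22 between Treg-origin and CD4 cells, against -0.37 to -0.34, so both genes were closer to their conventional level in that library. Cct8 was -0.61 between Treg-origin and CD8 cells, against -0.50 to -0.48 in the other libraries, and was thus farther from it. Dnajb6 stood at -0.0048 between Treg-origin and CD4 cells in the CD226-knockout library, against 0.04 to 0.05 in the others.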

How the results depend on the processing

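Of the 31 members lower in Treg-origin than in CD4 cells, 16 were called lower under every alternative run, and 24 with each library left out; against CD8 cells it was 19 and 31 of 34. Between CD8 and CD4 cells only Dnajc15 and Dnajc9 (higher) and Dnajc4 (lower) were called under every alternative. Counts of calls moved by over 1.5 times as follows. Treg-origin against CD4: 3 higher with Treg-origin cells that had more Cd4 UMIs, and 20 lower in cells of 3000 to 8000 UMIs. Treg-origin against CD8: 2 higher and 21 lower in cells with few proliferation UMIs. CD8 against CD4: 15 higher and 5 lower in cells of 3000 to 8000 UMIs, 3 and 1 in cells with few proliferation UMIs, and 4 lower with cells thinned to 2000 UMIs. Leaving out 1 library gave 4 to 5 higher and 25 to 27 lower against CD4, 4 to 6 and 31 to 34 against CD8, and 18 to 26 higher and 5 to 8 lower for CD8 against CD4 (5 without the TIGIT-knockout library). Without the replicate block the counts were 6 higher and 23 lower, 7 and 33, and 16 and 6. DESeq2 gave 6 and 25, 6 and 32, and 26 and 6.

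In cells with few proliferation UMIs these values changed sign, and the cause was not tested. Treg-origin against CD4: Dnajb1 0.21, Hspa4 0.052, Hspa8 0.10. Treg-origin against CD8: Dnajb1 0.15, Hspa4 0.011, Hspa8 0.059. CD8 against CD4: Cct3 -0.12, Cct5 -0.023, Cct8 -0.0084, Dnajc10 0.14, Dnajc11 -0.048, Dnajc2 -0.011, Dnajc30 0.043, Hspd1 -0.10, Hspe1 -0.045, Hspa5 -0.059, Hspa9 -0.058, Hsp90ab1 -0.030. In cells of 3000 to 8000 UMIs they were Hspa8 0.063 (against CD4) and 0.058 (against CD8), Hspa5 0.0033 (against CD8) and, for CD8 against CD4, Cct3 -0.018, Cct5 -0.026, Hspa4 -0.0054, Hspe1 -0.039, Hspa5 -0.062 and Hspa9 -0.017.

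The number of members past 1.5-fold between genotypes in Treg-origin cells was 1 for TIGIT loss with CD226 absent and 0 for the other contrasts. It became 0 with a pseudocount of 5 CPM, a mean of at least 50 CPM, a 2-fold limit or few proliferation UMIs, and 2 with the stricter antibody ratio. For CD226 loss with TIGIT present, CD226 loss with TIGIT absent and TIGIT loss with CD226 present it was 1, 1 and 1 with the stricter ratio, 1, 2 and 2 in cells of 3000 to 8000 UMIs and 2, 3 and 1 with few proliferation UMIs. In CD8 cells, CD226 loss with TIGIT absent gave 2 and 1 in the last 2 settings. Treg-origin sums hold 1747477 to 2305761 UMIs per library, so members of a few CPM rest on few UMIs.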
